A study of Mus musculus with 8 samples.

Results

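This report describes the genes that encode histone lysine methyltransferases (writers) and demethylases (erasers) in brains of young adult and aged mice. Members were chosen by symbol, as protein-coding genes of the autosomes and the X chromosome whose symbol begins with Kmt2, Kmt5, Kdm, Setd, Setdb, Nsd, Ehmt, Suv39h or Ezh. The rule gave 44 genes, 27 writers and 17 erasers, out of 22430 genes listed, and all 44 were among the 16730 genes tested. Another 4 matching symbols were not used: the pseudogenes Kdm4dl and Setd9-ps, the antisense RNA Kdm6bos and the Y-linked Kdm5d. RNA came from brain hemispheres of 8 male C57Bl/6JRj mice, labelled as whole brain, 4 of them aged 6 months (6m) and 4 aged 24 months (24m), with no other treatment or allele given. Polyadenylated RNA was sequenced, and each library came from 1 animal.

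Writers place methyl groups on lysines of histone tails with S-adenosylmethionine as the donor, mostly through a SET domain, and erasers remove them, either with a flavin cofactor (Kdm1a and Kdm1b) or as JmjC oxygenases that use iron and 2-oxoglutarate. Methylation of histone H3 at lysine 4 (H3K4) marks promoters and enhancers, that at lysine 36 (H3K36) marks transcribed gene bodies, and methylation at lysine 9 (H3K9), at lysine 27 (H3K27) and of histone H4 at lysine 20 (H4K20) is tied to silent chromatin. Many of these genes are altered in human neurodevelopmental disorders, among them KMT2A, KMT2D, NSD1, EHMT1, SETD5 and KDM5C.

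The libraries held 63460940 to 74513571 counts at 6m and 72936345 to 103462414 counts at 24m, the deepest being 24m replicate 1. Mitochondrially encoded genes took 5.26 to 6.52% of counts at 6m and 3.18 to 3.69% at 24m. Markers of cell types were called by the rule given below, under which 25.3% of all tested genes were higher and 18.3% lower at 24m. Of 12 neuronal markers, 4 were higher and 1 lower at 24m. Their summed level was 5360 to 5790 counts per 1e+06 counts of the library (CPM) at 6m and 6030 to 6310 CPM at 24m. Of 12 astrocyte markers, 8 were higher and 1 was lower, with summed levels that overlapped (3280 to 4210 CPM and 3440 to 4310 CPM). Microglial markers gave 3 higher and none lower of 12 (summed level 716 to 791 CPM and 677 to 1020 CPM), oligodendrocyte markers 2 higher and none lower of 12 (3620 to 4520 CPM and 3950 to 4520 CPM), and endothelial markers 2 higher and 3 lower of 12 (113 to 151 CPM and 71.7 to 107 CPM). Of 6 markers of cycling cells, 2 were lower and none was higher, and their summed level was 2.22 to 2.98 CPM at 6m and 1.32 to 2.69 CPM at 24m. No marker was listed at 0 in all libraries, and the part of cell composition in the values of the members was not tested. In such bulk libraries, fewer cells of a type and less RNA per cell cannot be told apart.

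The first question was which writers and erasers differed between ages. A gene was called when edgeR's quasi-likelihood test gave an adjusted p of at most 0.05 together with a log2 fold change of at least 0.58 in either direction. Log2 values followed by a standard error (SE) are log2 fold changes of 24m against 6m from this test. Of the 44 members, 17 were called higher at 24m (38.6%), against 25.3% of all tested genes, and 5 were called lower (11.4%), against 18.3% of all tested genes. By the adjusted p alone, 26 members were higher and 7 were lower. Of all 16730 tested genes, 5479 were higher and 4999 lower by that measure, 62.6% in either direction. The 4 libraries of one age lay entirely above those of the other for 26 members (59.1%), and the same held for 55.2% of all tested genes. The median log2 fold change of the members was 0.48, and that of all tested genes was -0.0034. The canonical transcripts of the members had a median length of 6244 bases, against 3293 bases for all tested genes, and 34 of 44 members were longer than that median. Fold change rose with transcript length across all genes (Spearman rho 0.56 over 16677 genes) and across members (rho 0.49 over 44), as a description across genes, which are not independent replicates. Of the 26 members with transcripts over 5000 bases, 15 were called higher and 1 lower, against 51.9% and 5.77% of all tested genes of such length. Of the 18 shorter ones 2 were called higher and 4 lower, against 16.6% and 22.4% of the shorter genes. After the trend of counts with transcript length was removed in each library, 7 members were called higher and 7 lower (15.9% each), close to the 18.1% and 14.5% of all tested genes under that setting, and 6 and 2 of these members had the same call before. The median of the members was then -0.05. Scaling by library totals alone raised the median of all tested genes by 0.21 and gave 26 members called higher (59.1%) and 3 lower (6.82%), against 32.6% and 10.4% of all tested genes. The 9 members that gained a call under that scaling were Suv39h1, Ehmt1, Nsd1, Kdm2b, Kdm4b, Kdm4c, Kdm4d, Kdm5c and Kdm8, with log2 fold changes of 0.60 to 0.78.

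**Figure D1:**
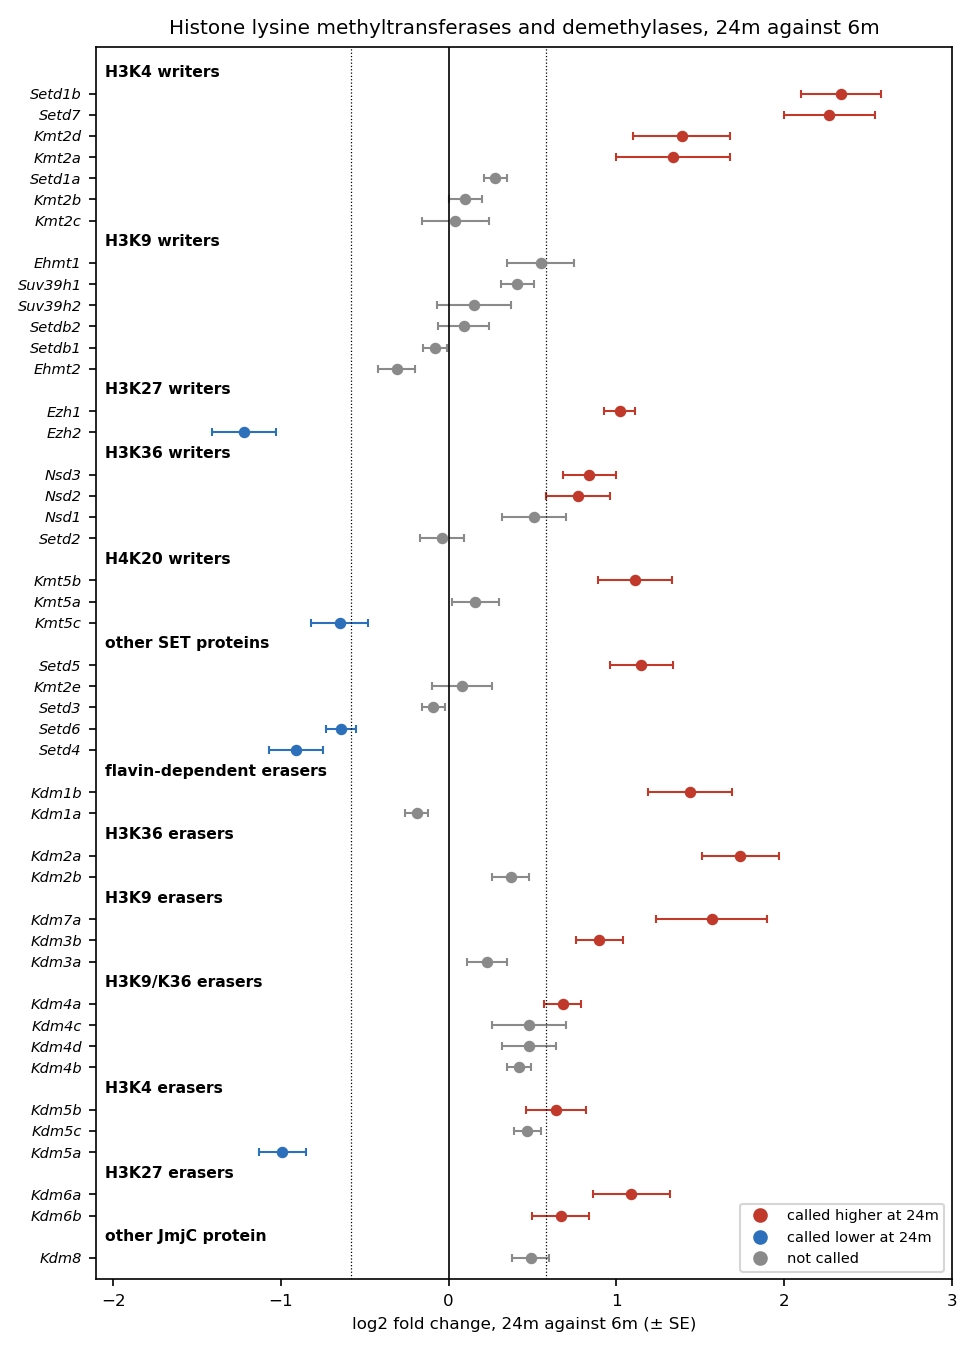
Log2 fold change of the 44 members at 24m against 6m with its standard error (horizontal axis), grouped by role and target lysine, with dotted lines at the thresholds of 0.58 and -0.58. Setd1b and Setd7 have the highest values (2.34 and 2.27), Ezh2 and Kdm5a the lowest (-1.22 and -0.99), and no H3K9 writer is called.

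The writers and the erasers were then set side by side. Of the 17 erasers, 8 were higher and 1 was lower (median log2 fold change 0.49), and of the 27 writers, 9 were higher and 4 were lower (median 0.16). The writers' median was 0.29 without 24m replicate 1 and 0.26 without 6m replicate 2. It was 0.39 with scaling by library totals alone and 0.34 without the writers not established as histone lysine enzymes, named below. Once the length trend was removed, medians were 0.14 for erasers and -0.21 for writers. Under that setting 4 erasers and 3 writers were called higher, and 1 eraser and 6 writers lower. Of all tested genes, 18.1% were then called higher and 14.5% lower. The mean log2 CPM over the writers was 4.24, 4.30, 4.30 and 4.15 at 6m (replicates 1 to 4 in this order, as throughout) and 4.28, 4.70, 4.68 and 4.79 at 24m. Over the erasers it was 3.55, 3.67, 3.64 and 3.45 at 6m and 3.81, 4.25, 4.22 and 4.42 at 24m. Replicate 1 of 24m was the lowest 24m library in both sets, and its writers' mean lay within the range of the 6m libraries. The writers' mean minus the erasers' mean was 0.69, 0.63, 0.67 and 0.70 at 6m and 0.47, 0.45, 0.47 and 0.37 at 24m, so that it was smaller in every 24m library. With the length trend removed it was 0.61 to 0.67 at 6m and 0.41 to 0.50 at 24m. Without 6 members that are not established histone lysine enzymes (Kmt2e, Setd3, Setd4, Setd5, Setd6 and Kdm8) it was 0.33 to 0.40 at 6m and 0.17 to 0.27 at 24m. These set means weight each gene equally and were not tested, since the members were chosen as a list.

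**Figure D2:**
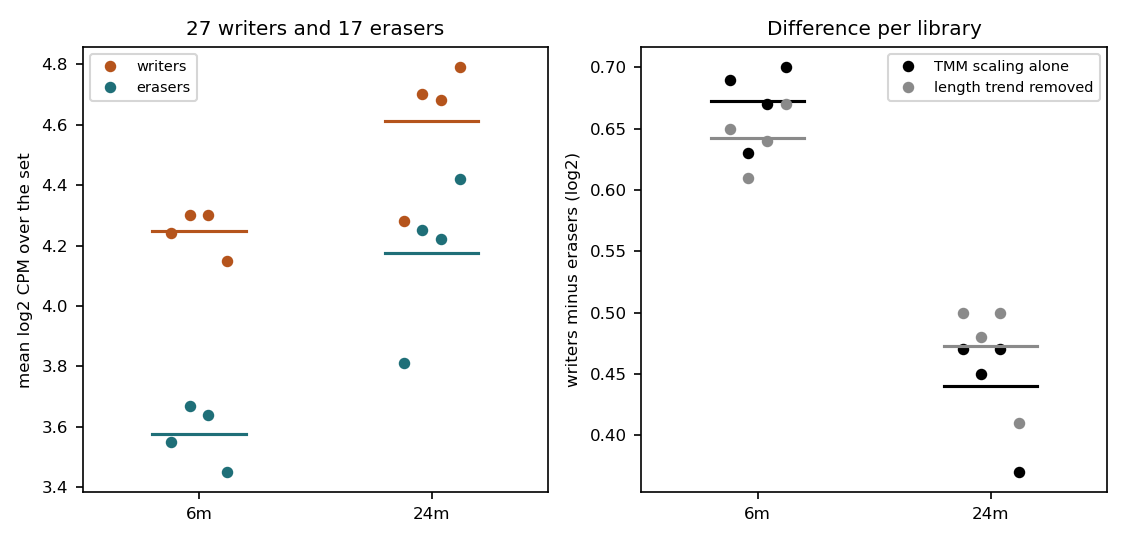
Mean log2 CPM over 27 writers and 17 erasers in each library (left) and the writers' mean minus the erasers' mean, before and after removal of the length trend (right); points are libraries, replicates 1 to 4 from left to right, and lines are means of 4. The difference is 0.63 to 0.70 in 6m libraries and 0.37 to 0.47 in 24m libraries.

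H3K4 writers included the highest changes of the whole set. Of these 7 genes, 4 were called higher (57.1%), none was called lower, and the median log2 fold change was 1.34. All 7 have transcripts over 5000 bases. Of all tested genes of such length, 51.9% were called higher and 5.77% lower, so the counts were close to those of long genes in general. Setd1b, a catalytic subunit of the COMPASS complexes (ENSMUSG00000038384, chr5:123280256-123306692), stood at 6.51, 7.65, 7.0 and 6.28 CPM at 6m and 18.3, 37, 39.2 and 44.8 CPM at 24m. All 24m libraries lay above all 6m libraries, with replicate 1 lowest among them, and the log2 fold change was 2.34 ± 0.24 (SE, edgeR adjusted p = 7.6e-05). Its paralog Setd1a (ENSMUSG00000042308, chr7:127375842-127399294) stood at 71.9, 70.5, 73.4 and 74.5 CPM at 6m and 83.2, 92.4, 90.2 and 85.6 CPM at 24m, where the ages did not overlap either but the log2 fold change was 0.28 ± 0.07 (SE, edgeR adjusted p = 0.00678), below the threshold of size. Exons of Gm49388 on the same strand hold 51.5% of the exonic bases of Setd1a, so that reads of these genes may be split between them. Setd7, which places a single methyl group on H3K4 and on many proteins other than histones (ENSMUSG00000037111, chr3:51422740-51468300), stood at 3.08, 3.75, 2.9 and 2.92 CPM at 6m and 8.21, 15.7, 14.7 and 22.4 CPM at 24m. The lowest 24m library was again replicate 1, still above every 6m library, and the log2 fold change was 2.27 ± 0.27 (SE, edgeR adjusted p = 0.000138). Both Setd1b and Setd7 remained called with the length trend removed, at log2 values of 1.56 and 1.52. Setd1a turned to -0.36 under that setting.

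The mixed lineage leukaemia genes Kmt2a to Kmt2d, large H3K4 writers of promoters and enhancers, divided into a called and an uncalled pair. Kmt2a (ENSMUSG00000002028, chr9:44714652-44792621) stood at 15, 14, 14 and 11.3 CPM at 6m and 12.8, 34.6, 35.4 and 54.2 CPM at 24m. Replicate 1 of 24m lay among the 6m libraries, the other 24m libraries lay above all of them, and the log2 fold change was 1.34 ± 0.34 (SE, edgeR adjusted p = 0.00726). Kmt2d, a writer of enhancer marks (ENSMUSG00000048154, chr15:98729550-98769085), stood at 24.1, 25.3, 25.9 and 23.2 CPM at 6m and 27.3, 67.9, 76.8 and 86.4 CPM at 24m, with 24m replicate 1 just above the 6m libraries and a log2 value of 1.39 ± 0.29 (SE, edgeR adjusted p = 0.00241). Kmt2b (87.4, 75.7, 74.1 and 81.5 CPM at 6m and 71.7, 90.1, 92.7 and 86.1 CPM at 24m) and Kmt2c (29.8, 24.3, 27.4 and 23.9 CPM at 6m and 17.1, 29.8, 25.4 and 36.3 CPM at 24m) had ages that overlapped, and their log2 fold changes were 0.10 ± 0.10 (SE, edgeR adjusted p = 0.424) and 0.04 ± 0.20 (SE, edgeR adjusted p = 0.859). After removal of the length trend, Kmt2a was at 0.47 and Kmt2d at 0.56, neither called, while Kmt2b and Kmt2c were called lower at -0.63 and -0.74. With length and GC trends both removed, Kmt2d was called higher (0.85) and Kmt2c lower (-0.69). Kmt2a (0.55) and Kmt2b (-0.51) were not called under that setting.

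The erasers that act on H3K4 moved in both directions. Kdm5a, which removes methyl groups from trimethylated H3K4 (ENSMUSG00000030180, chr6:120341068-120421535), stood at 33.4, 26.5, 27 and 27.6 CPM at 6m and 11.7, 14.3, 13.5 and 18.2 CPM at 24m. Every 24m library lay well below every 6m library, and the log2 fold change was -0.99 ± 0.14 (SE, edgeR adjusted p = 0.000358). It was the only called-lower member with a transcript over 5000 bases (10948 bases), and its decrease was larger with the length trend removed (-1.74). Its paralog Kdm5b (ENSMUSG00000042207, chr1:134487875-134563030) stood at 23.1, 25.3, 26.2 and 22.1 CPM at 6m and 24.9, 37.5, 37.3 and 50.8 CPM at 24m, with 24m replicate 1 inside the 6m range, replicate 4 highest, and a log2 value of 0.64 ± 0.18 (SE, edgeR adjusted p = 0.0129). Kdm5b lost its call without 24m replicate 4 (log2 fold change 0.46) and stood at -0.13 with the length trend removed. It was also not called with the GC trend removed (0.43) or on quantile-normalized counts in DESeq2 (0.57). The X-linked Kdm5c stood at 43.3, 44.5, 46.5 and 47.1 CPM at 6m and 56.1, 64.5, 65.6 and 65.9 CPM at 24m. Its ages did not overlap, and its log2 value of 0.47 ± 0.08 (SE, edgeR adjusted p = 0.000879) stayed below the threshold of size. Kdm5a made up 45.1 to 53.5% of the summed CPM per kilobase of Kdm5a and Kdm5b at 6m and 22.2 to 27.4% at 24m. Among the flavin-dependent erasers, which take methyl groups from mono- and dimethylated H3K4, Kdm1a (the CoREST subunit also called LSD1) stood at 80.9, 79.7, 80.1 and 79.9 CPM at 6m and 65.8, 70, 71.5 and 73.3 CPM at 24m. All 24m libraries lay below the 6m libraries, by a log2 value of -0.19 ± 0.07 (SE, edgeR adjusted p = 0.0321), which turned to 0.03 with scaling by library totals alone. Kdm1b, at a far lower level, stood at 1.22, 1.47, 1.33 and 0.772 CPM at 6m and 2.21, 3.29, 3.18 and 4.31 CPM at 24m, did not overlap between ages, and had a log2 value of 1.44 ± 0.25 (SE, edgeR adjusted p = 0.00092). With the length trend removed it was at 0.71. Of its exonic bases, 16.1% lie under exons of Dek on the other strand, and Dek had a log2 fold change of -1.15.

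The catalytic subunits of Polycomb repressive complex 2 (PRC2), which methylate H3K27, were called in opposite directions. Ezh1, the subunit that predominates in cells that no longer divide (ENSMUSG00000006920, chr11:101081934-101117315), stood at 28.4, 32, 29.4 and 31.3 CPM at 6m and 52.6, 62.6, 64.9 and 65.4 CPM at 24m. Every 24m library lay above every 6m library, with a log2 value of 1.02 ± 0.09 (SE, edgeR adjusted p = 4.84e-05). Ezh2, the subunit of dividing cells (ENSMUSG00000029687, chr6:47507073-47572331), stood at 9.49, 7.66, 7.25 and 6.78 CPM at 6m and 4.21, 3.69, 3.11 and 2.36 CPM at 24m, with all 24m libraries below all 6m libraries and a log2 value of -1.22 ± 0.19 (SE, edgeR adjusted p = 0.000526). Per kilobase of canonical transcript, Ezh1 accounted for 68.5, 75.2, 74.7 and 77.1% of the summed CPM of both genes in the 6m libraries and for 90.1, 92.5, 93.8 and 95.3% in the 24m libraries. Both calls remained in all 22 alternatives that were run, between 0.67 and 1.24 for Ezh1 and between -1.54 and -1.01 for Ezh2. Of the exonic bases of Ezh1, 8.80% lie under exons of Cntnap1 on the other strand, whose log2 fold change was 0.91, and strand use in counting was not given in the sources used here. The H3K27 erasers, Kdm6a (UTX, X-linked) and Kdm6b (JMJD3), were both called higher. Kdm6a stood at 4.22, 4.71, 4.51 and 2.78 CPM at 6m and 5.46, 9.26, 8.68 and 11.2 CPM at 24m, with no overlap between ages and a log2 value of 1.09 ± 0.23 (SE, edgeR adjusted p = 0.00287). Kdm6b ranged from 20.8 to 23.6 CPM at 6m and from 22.7 to 41.6 CPM at 24m, overlapping through 24m replicate 1, with a log2 value of 0.67 ± 0.17 (SE, edgeR adjusted p = 0.00729). Neither was called once the length trend was removed, at 0.41 and -0.01.

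The 250 bases upstream of the outermost annotated start of Ezh1 and Ezh2 are shown because these genes were called in opposite directions, and those of Setd1b and its paralog Setd1a because Setd1b had the highest fold change of the members. All 4 were picked after the fold changes were seen. The windows lie at chr11:101117316-101117565 (Ezh1, minus strand), chr6:47572332-47572581 (Ezh2, minus strand), chr5:123280006-123280255 (Setd1b, plus strand) and chr7:127375592-127375841 (Setd1a, plus strand) in GRCm39, and are written in the direction of transcription. Capitals mark matches to the motifs searched for, on either strand: the Sp1 box GGGCGG, the E-box CACGTG, the cAMP response element core TGACG, the NRF1 motif GCGCATGC, the YY1 core AAGATGGC, the CCAAT box CCAAT, the ETS core CCGGAA and the TATA box TATAAA. No match overlapped another in these 4 windows. Exons of the long non-coding RNAs AI480526 and Gm38102 cover the Setd1b window, and no annotated exon lies in the other 3.
Ezh1: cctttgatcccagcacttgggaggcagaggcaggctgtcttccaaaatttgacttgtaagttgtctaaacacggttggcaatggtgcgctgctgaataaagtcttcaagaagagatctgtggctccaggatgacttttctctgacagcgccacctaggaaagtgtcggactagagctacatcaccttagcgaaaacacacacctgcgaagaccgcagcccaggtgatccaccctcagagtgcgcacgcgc
Ezh2: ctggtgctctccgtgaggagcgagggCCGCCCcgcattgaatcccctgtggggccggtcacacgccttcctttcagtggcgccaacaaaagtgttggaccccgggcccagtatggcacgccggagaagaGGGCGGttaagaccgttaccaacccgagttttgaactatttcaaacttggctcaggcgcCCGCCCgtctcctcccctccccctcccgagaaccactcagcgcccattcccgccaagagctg
Setd1b: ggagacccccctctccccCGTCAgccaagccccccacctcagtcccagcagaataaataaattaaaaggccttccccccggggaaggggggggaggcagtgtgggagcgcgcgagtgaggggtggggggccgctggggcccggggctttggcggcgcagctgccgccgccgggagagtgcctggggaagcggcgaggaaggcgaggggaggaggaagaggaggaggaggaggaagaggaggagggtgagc
Setd1a: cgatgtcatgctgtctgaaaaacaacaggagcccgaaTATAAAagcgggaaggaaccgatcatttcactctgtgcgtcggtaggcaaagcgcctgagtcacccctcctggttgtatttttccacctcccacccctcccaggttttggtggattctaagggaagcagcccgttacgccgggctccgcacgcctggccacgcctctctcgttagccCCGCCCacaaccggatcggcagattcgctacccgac
The window of Ezh2 held 3 Sp1 boxes and 19 CG pairs, and that of Ezh1 held none of the 8 motifs and 10 CG pairs. The Setd1b window held 1 cAMP response element core and 15 CG pairs, whereas the Setd1a window held 1 Sp1 box, 1 TATA box and 19 CG pairs. Over all 44 members the median was 14 CG pairs, against 8 over the windows of 16573 tested genes. An Sp1 box occurred in 25 of 44 members (56.8%) and in 36.8% of all windows, an ETS core in 10 (22.7%) and 12.9%, a cAMP response element core in 10 (22.7%) and 18.9%, a CCAAT box in 16 (36.4%) and 34.9%, and an E-box in 4 (9.09%) and 6.66%. The YY1 core occurred in 2 members (4.55%) and 1.51% of all windows, the NRF1 motif in 1 (2.27%) and 2.44%, and the TATA box in 2 (4.55%) and 9.03%. A match to letters is a description of the window and not evidence of binding.

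**Figure D3:**
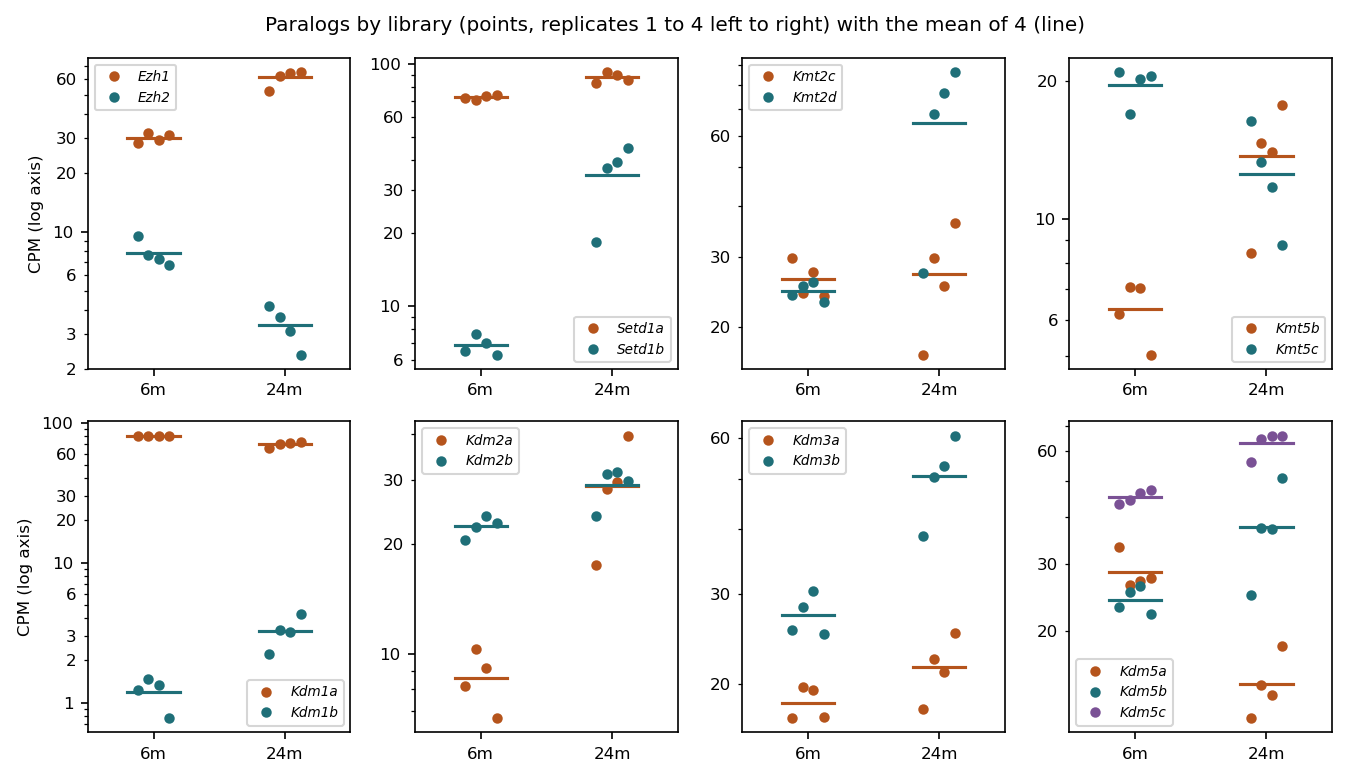
CPM of paralogs in each library on a log axis, with points for replicates 1 to 4 from left to right and a line at the mean of 4. Ezh1 (28.4 to 32.0 CPM at 6m, 52.6 to 65.4 CPM at 24m) and Ezh2 (6.78 to 9.49 CPM at 6m, 2.36 to 4.21 CPM at 24m) are called in opposite directions, and Setd1b, Kmt2d, Kdm1b, Kdm2a and Kdm3b are called higher while the relative drawn beside each is not.

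H3K9 writers, which build heterochromatin, held no called member among 6. Their log2 fold changes ran from -0.31 (Ehmt2, also called G9a) to 0.55 (Ehmt1, its partner GLP), with a median of 0.12. Ehmt2 had the highest level per kilobase of all members, 112 ± 8.21 CPM per kilobase at 6m and 90.0 ± 12.7 at 24m (SD, n = 4), and its 24m libraries (308 to 433 CPM) overlapped with those of 6m (416 to 497 CPM). It was called lower, at -0.60, with the length trend removed. Ehmt1 ranged from 11.8 to 13.9 CPM at 6m and from 11.3 to 23.3 CPM at 24m, and was called higher, at 0.74, without 24m replicate 1. The X-linked Suv39h1, a writer of pericentromeric heterochromatin, did not overlap between ages (20.8 to 24.9 CPM and 26.5 to 34.2 CPM), with a log2 value of 0.41 ± 0.10 (SE, edgeR adjusted p = 0.00567). Suv39h2 (1.3 to 2.19 CPM at 6m and 1.34 to 2.07 CPM at 24m, log2 fold change 0.15), Setdb1, which silences transposable elements (34 to 36.7 CPM at 6m and 32.9 to 34.7 CPM at 24m, log2 fold change -0.08), and Setdb2 (1.95 to 2.79 CPM at 6m and 2.38 to 2.85 CPM at 24m, log2 fold change 0.09) did not pass the adjusted p. Exons of Dclre1c on the other strand cover 50.3% of the exonic bases of Suv39h2.

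Of the 3 erasers that act on H3K9 without the Kdm4 family, 2 were called higher, against 25.3% of all tested genes. These 2, Kdm3b and Kdm7a, have transcripts over 5000 bases, and 51.9% of all tested genes of such length were called higher. Kdm3b, which removes mono- and dimethyl marks (ENSMUSG00000038773, chr18:34910036-34972064), stood at 25.5, 28.2, 30.3 and 25.1 CPM at 6m and 38.7, 50.5, 53.1 and 60.7 CPM at 24m, where every 24m library lay above every 6m library and the log2 fold change was 0.90 ± 0.14 (SE, edgeR adjusted p = 0.000474). Its paralog Kdm3a stood at 17.2, 19.8, 19.5 and 17.3 CPM at 6m and 17.9, 22.4, 21.1 and 25.2 CPM at 24m, overlapped between ages and had a log2 value of 0.23 ± 0.12 (SE, edgeR adjusted p = 0.111). Kdm7a, a dual eraser of H3K9 and H3K27 dimethylation and the member with the lowest level per kilobase (ENSMUSG00000042599, chr6:39113554-39183728), stood at 0.823, 0.948, 1.03 and 0.802 CPM at 6m and 1.14, 3.39, 2.45 and 3.7 CPM at 24m. Its counts were 53 to 67 per 6m library and 118 to 323 per 24m library, replicate 1 being the lowest at 24m, and the log2 fold change was 1.57 ± 0.33 (SE, edgeR adjusted p = 0.00261). The Kdm4 genes act on trimethylated H3K9 and, except for Kdm4d, on H3K36. Kdm4a stood at 36.1, 42.5, 39.1 and 39.6 CPM at 6m and 51.8, 63, 69.6 and 67.3 CPM at 24m, with no overlap and a log2 value of 0.68 ± 0.11 (SE, edgeR adjusted p = 0.000551). Kdm4b (66.2, 68.4, 68.1 and 71.8 CPM at 6m and 96.2, 91.9, 94.4 and 85.9 CPM at 24m) did not overlap either and had a log2 value of 0.42 ± 0.07 (SE, edgeR adjusted p = 0.000809), below the threshold of size. It was called higher with the GC trend removed and with scaling by library totals alone (both 0.64). Kdm4c stood at 7.27, 9.04, 8.51 and 4.89 CPM at 6m and 7.15, 11.1, 10.2 and 13.1 CPM at 24m, overlapping through 24m replicate 1, with a log2 value of 0.48 ± 0.22 (SE, edgeR adjusted p = 0.085), and was called higher without that library (0.64). Kdm4d, a low gene (1.01 to 1.58 CPM at 6m and 1.7 to 1.85 CPM at 24m, log2 fold change 0.48), did not overlap between ages and passed the adjusted p but not the size threshold. It was called higher without 6m replicate 2 (log2 fold change 0.62) and with scaling by library totals alone (0.70). Of its exonic bases, 20.8% are shared with the same-strand pseudogene Kdm4dl. Under removal of the length trend, Kdm7a remained called (0.75), while Kdm3b (0.22) and Kdm4a (0.25) did not.

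H3K36 writers and erasers were higher or uncalled, and none was called lower. Nsd3 (ENSMUSG00000054823, chr8:26091527-26209694) and Nsd2 (ENSMUSG00000057406, chr5:33977734-34055319), which place up to dimethylation, were called. Nsd3 stood at 14.1, 15.5, 16.6 and 13.6 CPM at 6m and 19.8, 25.9, 27 and 34.3 CPM at 24m, without overlap, and had a log2 value of 0.84 ± 0.16 (SE, edgeR adjusted p = 0.0014). Nsd2 stood at 8.66, 10.2, 9.62 and 7.29 CPM at 6m and 10, 16.1, 15.6 and 19.2 CPM at 24m, overlapping only through 24m replicate 1, with a log2 value of 0.77 ± 0.19 (SE, edgeR adjusted p = 0.00655). It was not called on quantile-normalized counts in DESeq2 (0.50). Exons of Nelfa on the other strand (log2 fold change -0.16) cover 15.9% of its exonic bases. Their relative Nsd1 stood at 29, 31, 30.7 and 30.2 CPM at 6m and 27.3, 42.7, 44.6 and 57.8 CPM at 24m, with 24m replicate 1 below all 6m libraries and the other 24m libraries above them, and its log2 fold change was 0.51 ± 0.19 (SE, edgeR adjusted p = 0.0358), rising to 0.69 (called) without that library. Setd2, which trimethylates H3K36 behind the elongating polymerase, ranged from 23.9 to 30.3 CPM at 6m and from 20.8 to 30.5 CPM at 24m, with a log2 value of -0.04 ± 0.13 (SE, edgeR adjusted p = 0.818). The eraser Kdm2a, which binds CpG islands (ENSMUSG00000054611, chr19:4364447-4448313), stood at 8.18, 10.3, 9.17 and 6.67 CPM at 6m and 17.5, 28.3, 29.6 and 39.6 CPM at 24m. Each 24m library exceeded each 6m library, and the log2 value of 1.74 ± 0.23 (SE, edgeR adjusted p = 0.00025) was the highest of any eraser. Kdm2b, its paralog, stood at 20.5, 22.3, 23.9 and 22.8 CPM at 6m and 23.9, 31, 31.4 and 29.8 CPM at 24m, where the highest 6m and the lowest 24m library nearly met, and had a log2 value of 0.37 ± 0.11 (SE, edgeR adjusted p = 0.0116). On removal of the length trend, Kdm2a remained called (0.97), Nsd3 (0.07) and Nsd2 (0.04) were close to 0, Nsd1 was at -0.28, Kdm2b at -0.17, and Setd2 was called lower (-0.77).

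Among H4K20 writers, Kmt5b and Kmt5c, the enzymes that extend the single methyl group to di- and trimethylation, moved in opposite directions. Kmt5b (ENSMUSG00000045098, chr19:3817362-3868322) stood at 6.19, 7.1, 7.05 and 5.04 CPM at 6m and 8.39, 14.6, 14 and 17.7 CPM at 24m, with all 24m libraries above those of 6m and a log2 value of 1.11 ± 0.22 (SE, edgeR adjusted p = 0.00176). Kmt5c (ENSMUSG00000059851, chr7:4743085-4750515) stood at 20.9, 16.9, 20.2 and 20.5 CPM at 6m and 16.3, 13.3, 11.7 and 8.77 CPM at 24m, where the ages nearly met but did not overlap, and the log2 fold change was -0.65 ± 0.17 (SE, edgeR adjusted p = 0.00887). The mean levels, 6.34 ± 0.966 and 19.6 ± 1.87 CPM at 6m, were 13.7 ± 3.89 and 12.5 ± 3.14 CPM at 24m (SD, n = 4). The call of Kmt5c was lost without 24m replicate 4 (log2 fold change -0.51), and both calls were lost with the length trend removed (0.48 and -0.45). Kmt5c also lost its call with scaling by library totals alone and with the GC trend removed (both -0.44). Kmt5a, which places the single methyl group, ranged from 10 to 13.1 CPM at 6m and from 9.65 to 13.9 CPM at 24m, with a log2 value of 0.16 ± 0.14 (SE, edgeR adjusted p = 0.347).

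Of the SET proteins whose main role is not established as histone lysine methylation, 1 was higher and 2 were lower. Setd5, mutated in intellectual disability (ENSMUSG00000034269, chr6:113052990-113130729), stood at 20.6, 23.8, 23.1 and 18.5 CPM at 6m and 32.1, 46.2, 48.4 and 64 CPM at 24m, with no overlap and a log2 value of 1.15 ± 0.19 (SE, edgeR adjusted p = 0.000686). Setd4 (ENSMUSG00000022948, chr16:93380340-93401219) stood at 12.6, 11.8, 13 and 13.3 CPM at 6m and 8.84, 6.74, 6.2 and 5.18 CPM at 24m, all 24m libraries being below those of 6m, with a log2 value of -0.91 ± 0.16 (SE, edgeR adjusted p = 0.000916). Setd6, which methylates the NF-kappa-B subunit RelA (ENSMUSG00000031671, chr8:96442452-96451045), stood at 18.5, 17.7, 17.5 and 18.8 CPM at 6m and 10.4, 11.9, 12.8 and 11.5 CPM at 24m, again without overlap, with a log2 value of -0.64 ± 0.09 (SE, edgeR adjusted p = 0.000417). Without 24m replicate 1 Setd6 came to -0.58, just inside the threshold, and lost its call. The call was also lost with scaling by library totals alone (-0.42), and with the GC trend (-0.52) or the exonic length trend (-0.53) removed. Setd4 and Setd6 have the shortest transcripts of the members (1835 and 1707 bases), and with the length trend removed Setd5, Setd4 and Setd6 were at 0.46, -0.56 and -0.21 without a call. Setd3, the actin histidine methyltransferase with the highest level per kilobase after Ehmt2, was at 186 to 199 CPM at 6m and 171 to 188 CPM at 24m, log2 fold change -0.09, and Kmt2e, a SET protein without known activity of its own, at 39 to 50.3 CPM at 6m and 32.6 to 61.3 CPM at 24m, log2 fold change 0.08. Among erasers, Kdm8 (JMJD5) stood without overlap (3.05 to 3.86 CPM at 6m and 4.72 to 4.96 CPM at 24m, log2 fold change 0.49) and passed the size threshold with the length trend removed (0.65).

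**Figure D4:**
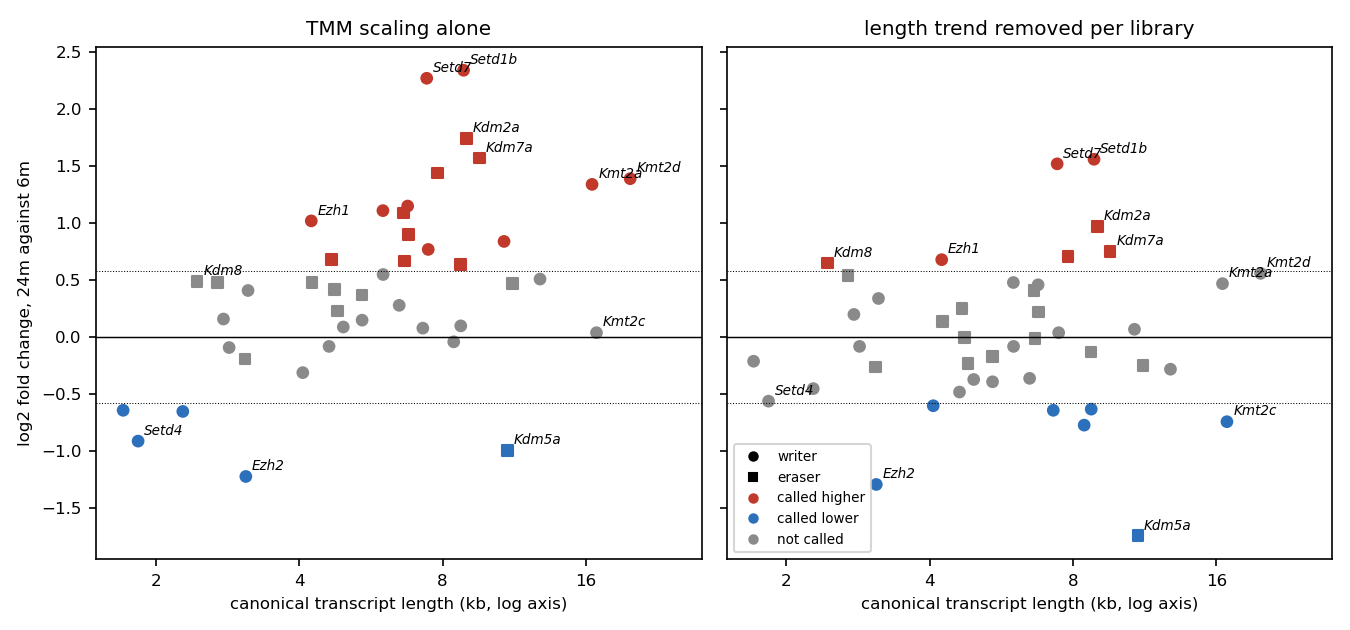
Log2 fold change of each member against its canonical transcript length (log axis), with TMM scaling alone (left) and after the length trend was removed in each library (right). On the left 17 members are called higher and 5 lower, and on the right 7 are higher and 7 lower, with Setd1b, Setd7 and Kdm2a highest and Kdm5a and Ezh2 lowest in both.

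Differences between paralogs compare genes within a library, so that scaling of the library cancels. Each of 21 pairs was compared by the difference of its log2 CPM between ages, with a two-sided exact permutation test over the 70 assignments of libraries. None of the 21 passed Benjamini-Hochberg adjustment over the pairs, whereas 11 had an unadjusted p under 0.05. All 11 stood at p = 0.0286, the smallest that exact permutation of 4 against 4 can give, which adjustment over the 21 pairs brought to 0.0545. The largest difference was that of Ezh1 and Ezh2, where Ezh1 minus Ezh2 was 1.96 ± 0.27 at 6m and 4.21 ± 0.48 at 24m (SD, n = 4), a shift of 2.25. Setd1a minus Setd1b shifted by -1.99, Kmt5b minus Kmt5c by 1.75, Kdm1a minus Kdm1b by -1.61, Kdm5a minus Kdm5b by -1.59 and Kdm5a minus Kdm5c by -1.47. Kdm2a minus Kdm2b shifted by 1.33, Kmt2c minus Kmt2d by -1.27, Kdm3a minus Kdm3b by -0.66, Nsd1 minus Nsd3 by -0.35 and Nsd1 minus Nsd2 by -0.28. In each of these 11 pairs the 4 values of one age lay apart from those of the other, and each kept its direction in all 12 alternatives run. Their adjusted p ranged from 0.0462 to 0.109 over the 11 alternatives by exact permutation of libraries, and was 0.188 by sign flips over replicate numbers. Taken singly, 55.2% of all tested genes had ages that lay apart, and the share among pairs of unrelated genes was not computed. Of the other 10 pairs, Kmt2a minus Kmt2b (1.08) and Ehmt1 minus Ehmt2 (0.82) had the largest shifts, both with overlap through 24m replicate 1 and an unadjusted p of 0.0857 by exact permutation. Without 24m replicate 1, 12 pairs passed adjustment, as did 12 with the length trend and 13 with the GC trend removed.

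The aged libraries differed in how far the members moved. Replicate 1 of 24m was the lowest 24m library for all 17 members called higher and the highest for 3 of the 5 called lower, as it was for 86.4% and 78% of all genes so called. Replicate 4 of 24m was the highest for 16 of the 17 and for 77.0% of all genes called higher. Of the 17, the ages did not overlap for 13, and the other 4 (Kmt2a, Kdm5b, Kdm6b and Nsd2) separated once 24m replicate 1 was left out. All 5 called lower were without overlap. Among all genes called, 86.5% of those higher and 91.8% of those lower did not overlap, and 90.4% of the overlapping genes called higher separated without 24m replicate 1. Leaving out 24m replicate 1 gave 20 members called higher (45.5%) and 4 lower (9.09%), against 27.8% and 21.9% of all tested genes. The fewest calls were left without 24m replicate 4, with 16 members higher (36.4%) and 4 lower (9.09%), against 23.0% and 15.7% of all tested genes.

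**Figure D5:**
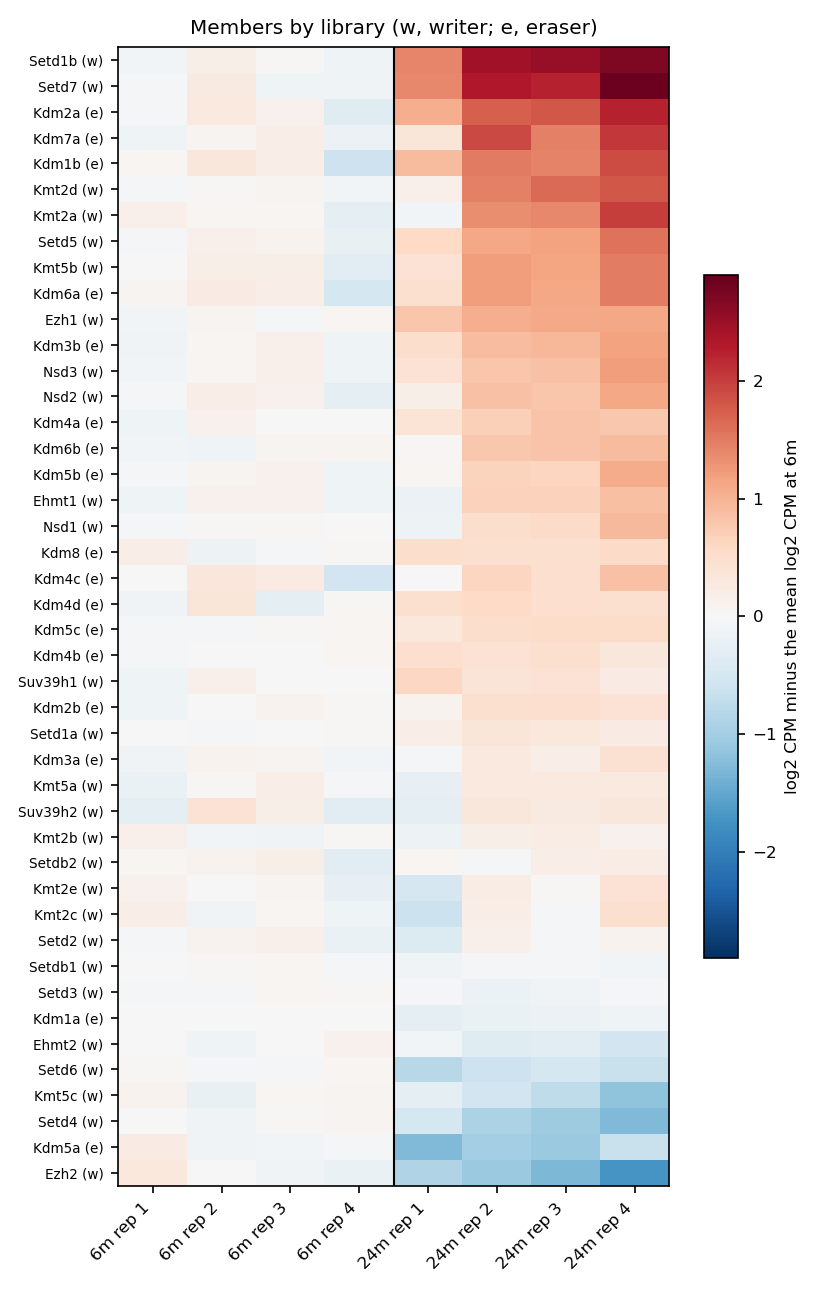
Log2 CPM of each member in each library minus its mean log2 CPM over the 6m libraries, ordered by fold change, with w for writers and e for erasers. In the 24m columns the replicate 1 column is the palest for the 17 members called higher, and the replicate 4 column is the darkest for 16 of them.

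Levels between genes were compared per kilobase of canonical transcript. At 6m the order was led by Ehmt2 (112 ± 8.21 CPM per kilobase), Setd3 (67.5 ± 2.11) and Kdm1a (26 ± 0.161), and at 24m by the same genes (90.0 ± 12.7, 63.4 ± 2.70 and 22.8 ± 1.04, SD, n = 4). Setd1b went from rank 37 of 44 (0.774 ± 0.0686 CPM per kilobase) to rank 22 (3.93 ± 1.30). Ezh1 went from rank 12 (7.14 ± 0.393) to rank 5 (14.5 ± 1.41), and Ezh2 from rank 25 (2.52 ± 0.385) to rank 39 (1.08 ± 0.257). Kdm5a went from rank 24 (2.61 ± 0.295) to rank 37 (1.32 ± 0.248). Kdm7a was the lowest at both ages (0.0941 ± 0.0112 and 0.279 ± 0.120).

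Genes that work with the members are given from lists of known partners, to be read against the 25.3% of all tested genes called higher and the 18.3% called lower. Of 14 COMPASS subunits, which serve the H3K4 writers, 3 were called higher and 4 lower (median log2 fold change -0.08), from Hcfc1 (1.64 ± 0.19, edgeR adjusted p = 0.000128) to Pagr1a (-0.99 ± 0.18, edgeR adjusted p = 0.00118). Of 11 subunits and cofactors of PRC2, 4 were higher and 1 lower (median 0.07), from Lcor (2.42 ± 0.39, edgeR adjusted p = 0.000616) to Mtf2 (-0.77 ± 0.14, edgeR adjusted p = 0.00145). Its core subunit Suz12, picked after its value was seen, was called higher (1.22 ± 0.31, edgeR adjusted p = 0.00685). Eed, another core subunit, likewise picked, was not called (-0.44 ± 0.12, edgeR adjusted p = 0.00878), nor were Rbbp4 (-0.02) and Rbbp7 (0.08). Of 18 partners of CoREST and of H3K9 methylation, 7 were higher and none was lower (median 0.27), from Rcor1, the CoREST scaffold (2.22 ± 0.33, edgeR adjusted p = 0.000451), to Hmg20b (-0.57 ± 0.14, edgeR adjusted p = 0.00624), which was not called. Of 21 other histone methyltransferases and demethylases, 6 were higher and 2 lower (median 0.24), from Ash1l, an H3K36 writer (1.89 ± 0.37, edgeR adjusted p = 0.00184), to Smyd2 (-0.80 ± 0.09, edgeR adjusted p = 0.000134). Of 13 genes listed for methyl donor and 2-oxoglutarate supply, 5 were higher and none was lower (median 0.27). They ran from Ahcyl2 (1.65 ± 0.21, edgeR adjusted p = 0.000211) to Idh2, a source of 2-oxoglutarate in mitochondria (-0.52 ± 0.09, edgeR adjusted p = 0.0012), which was not called. The part of Ahcyl1 and Ahcyl2, both called higher, in this supply was not examined. Mat1a, also called higher, was near the floor, with means of 0.0576 CPM at 6m and 0.116 CPM at 24m.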

How the data were processed

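RNA was measured in 8 libraries, 4 per age. Per the submitters' processing notes, reads were trimmed with Trim Galore 0.4.11 and aligned to GRCm39 with HISAT2 2.1.0. The authors counted reads per gene with featureCounts, and the deposited table holds these whole-number counts without normalization or pooling. Strand and multimapping settings were not given in the sources used here, so values of paralogs and overlapping genes carry that uncertainty. Of 22430 genes, 22281 matched GENCODE vM39, which supplied positions, transcript lengths and sequences.

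Genes with over 5 counts in at least 4 libraries were fitted with edgeR 4.0.16 (R 4.3.3; quasi-likelihood test, TMM factors, age alone), with p-values adjusted by Benjamini-Hochberg over all 16730 genes. CPM used TMM factors, and log2 CPM a prior count of 2. Length and GC trends were removed with smoothed offsets per library (lowess span 0.3). The fit was tested on simulated data. Replicate libraries differed by more than sampling noise (chi-square 8.18 to 417 per degree of freedom). Alternatives included DESeq2 1.42.0 and limma 3.58.1.

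Members and lists were chosen with earlier results of these data known. Values in each library are given for every called member up to the 10 largest and 10 smallest fold changes and for both genes of paralog pairs on different sides of the thresholds. Partner genes are named at the ends of each list, and other names were picked after their values were seen. Proteins were not analysed here.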

Additional observations from a re-analysis of the deposited data

Results flagged for a closer look

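In each age, the 4 CPM values of each member were examined for a library far from the rest, by the gap to the nearest library divided by the range. This gave 88 groups of 4, of which 6 (6.82%) were past the limit of Dixon's test, and chance marks about 5% of such groups, or 1 in 20. In 24m replicate 1, Kmt5a was at 9.65 CPM against 13.8 to 13.9 CPM in the other 24m libraries (ratio 0.976), Suv39h2 at 1.34 CPM against 1.97 to 2.07 CPM (ratio 0.859), Kdm5c at 56.1 CPM against 64.5 to 65.9 CPM (ratio 0.863) and Kdm6b at 22.7 CPM against 38.4 to 41.6 CPM (ratio 0.831). At 6m, Kdm5a was at 33.4 CPM in replicate 1 against 26.5 to 27.6 CPM (ratio 0.839), and Kmt5c at 16.9 CPM in replicate 2 against 20.2 to 20.9 CPM (ratio 0.83). Of the 6, 4 fell in 24m replicate 1, which was also the deepest library.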

How the results depend on the processing

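Under other scaling by ratios, DESeq2, limma-voom, other filters and the replicate block, 17 members were called higher and 5 lower, as before. Quantile-normalized counts in DESeq2 gave 15 higher and 5 lower and a median of 0.31, with 21.4% and 23.3% of all tested genes and a median of -0.10 over them. Library totals alone gave 26 higher and 3 lower, with 14 erasers higher, 2 writers lower, and medians of 0.70 (members), 0.39 (writers) and 0.72 (erasers). By the adjusted p alone, 26 members were higher, of them 13 erasers, and 2 erasers were lower, against 5479 higher and 4999 lower of 16730 tested genes. At a log2 threshold of 1, 11 members (4 erasers) were higher and 1 member, a writer, was lower, with 0 erasers lower, against 15.2% and 5.68% of all tested genes. Without the 6 members not established as histone lysine enzymes, 3 members (2 writers) were lower and the writers' median was 0.34. With the GC trend removed, 17 members were higher and 3 (2 writers) lower (38.6% and 6.82%, against 23.1% and 19.8% of all tested genes), and the writers' median was 0.27.

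With the length trend removed, 7 members were higher (3 writers, 4 erasers) and the medians were -0.05, -0.21 and 0.14 for members, writers and erasers. With length and GC trends removed, 8 were higher (4 writers, 4 erasers) and 5 lower (18.2% and 11.4%, against 17.8% and 14.8% of all tested genes) with medians of -0.06, -0.16 and 0.13, and with the replicate block added, 8 with -0.06, -0.18 and 0.11. Another 2 settings were chosen after seeing the data. The summed exonic length in place of the transcript length gave 10 higher (5 writers, 5 erasers) and 5 lower (22.7% and 11.4%, against 21.3% and 17.2% of all tested genes) with medians of 0.04 for members and -0.13 for writers. Removal of length and GC trends without 24m replicate 1 gave 9 higher (5 writers, 4 erasers) and 6 lower (20.5% and 13.6%, against 19.4% and 17.4% of all tested genes) with medians of 0.01, -0.18 and 0.25. Leaving out each library in turn gave 16 to 20 members higher and medians of 0.12 to 0.29 for writers (0.29 without 24m replicate 1, 0.26 without 6m replicate 2) and 0.48 to 0.64 for erasers. Of the 22 called members, 8 kept their call in all 22 alternatives: Setd1b, Setd7, Ezh1, Kdm1b, Kdm2a, Kdm7a, Ezh2 and Kdm5a.

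Log2 fold changes that turned sign are given where the adjusted p was at most 0.05 before or after. With the length trend removed these were Kmt2b -0.63, Kmt2c -0.74, Setd1a -0.36, Ehmt1 -0.08, Setdb2 -0.37, Nsd1 -0.28, Kmt2e -0.64, Kdm2b -0.17, Kdm3a -0.23, Kdm4b -0.001, Kdm5b -0.13, Kdm5c -0.25 and Kdm6b -0.01. With length and GC trends removed they were Kmt2b -0.51, Kmt2c -0.69, Setd1a -0.28, Suv39h2 -0.45, Ehmt1 -0.09, Setdb2 -0.43, Nsd1 -0.29, Nsd2 -0.02, Kmt2e -0.72, Kdm2b -0.14, Kdm3a -0.31, Kdm5b -0.19 and Kdm5c -0.27, and with the replicate block added Kmt2b -0.51, Kmt2c -0.69, Setd1a -0.28, Suv39h2 -0.44, Ehmt1 -0.11, Setdb2 -0.44, Nsd1 -0.29, Nsd2 -0.02, Kmt2e -0.72, Kdm2b -0.14, Kdm3a -0.31, Kdm5b -0.19 and Kdm5c -0.29. By exonic length they were Kmt2b -0.29, Kmt2c -0.69, Nsd1 -0.13, Kmt2e -0.49, Kdm2b -0.05, Kdm3a -0.20 and Kdm5c -0.04, and without 24m replicate 1 and both trends Kmt2b -0.52, Kmt2c -0.72, Setd1a -0.31, Suv39h2 -0.43, Setdb2 -0.54, Nsd1 -0.30, Nsd3 -0.00082, Kmt2e -0.69, Kdm2b -0.10, Kdm3a -0.32, Kdm5b -0.17 and Kdm5c -0.41. With library totals alone, Kdm1a 0.03 turned. The cause was not tested.

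Of the 21 paralog pairs, 12 passed adjustment with the length trend removed, 13 with the GC trend removed and 0 to 12 when each library was left out in turn (12 without 24m replicate 1). Replicate numbers were tried as a pairing by sign flips, whose smallest p is 0.125, so that 0 pairs could fall under 0.05. The labels do not say that replicate numbers mark shared litters or days, deviations of same-numbered libraries correlated at 0.27, 0.14, 0.08 and -0.35, and 2 of 8 libraries correlated best with their own number. The log2 fold change of Kdm7a, at 53 to 67 counts per 6m library, had an SE of 0.33, and that of Kmt2a, at 744 to 992 counts, one of 0.34.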
